A study of Homo sapiens with 5 samples.

Results

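miR-21 was followed across 5 lanes of a miRNA panel run on Caco2 cells, an established line from a human colorectal adenocarcinoma whose cells polarise and form an epithelial sheet in culture. It was taken as the probe with the exact name hsa-miR-21, 1 of 734 miRNA probes counted (654 human, 80 viral). The cells had been infected and selected with an shRNA against PLEKHA7 (shPLEKHA7, n = 3, replicates 1, 2 and 3) or with a non-target shRNA (NT, n = 2, replicates 1 and 3), so both groups carried a vector and had passed through selection. According to the design text the RNA came from independent sets of infections, and whether a set was a pool or a clone, the shRNA sequence and the selection agent are not given in the sources used here. Groups were read from the sample titles. The source field of shPLEKHA7 replicates 2 and 3 ends in shPLEKHA8 and shPLEKHA9, which was not followed. RNA was read with the NanoString nCounter Human v2 miRNA assay, which counts fluorescent barcodes bound to each target without amplification. PLEKHA7 itself is not among the probes counted, so its knockdown was not analysed here.

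Mature miRNAs are cut from hairpin transcripts by Drosha in the nucleus and Dicer in the cytoplasm, and then guide Argonaute to messages that pair with their seed. miR-21 is among the miRNAs most often raised in colorectal and other carcinomas, where it represses the tumour suppressor PDCD4 and the actin-binding protein TPM1, and its transcription is driven by STAT3 and AP-1. PLEKHA7 is a protein of the epithelial adherens junction, and the study asked how its depletion affects miRNA levels.

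The miR-21 hairpin and its mature strand are shown because they are the molecule counted, and the mature strand of miR-590-5p because it was the only other probe of the panel with the same seed. All are RefSeq sequences on GRCh38.p14, written from the 5′ end, and the letters of both deposited target sequences, read as RNA, equalled them. In the hairpin the capitals mark the mature strand (bases 8 to 29 of 72), and in the mature strands they mark the seed, bases 2 to 8.
MIR21 hairpin: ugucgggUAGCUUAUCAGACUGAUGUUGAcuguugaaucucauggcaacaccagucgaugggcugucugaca
hsa-miR-21: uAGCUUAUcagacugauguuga
hsa-miR-590-5p: gAGCUUAUucauaaaagugcag
The mature miR-21 strand lies at chr17:59841273-59841294 on the plus strand, within the annotated span of the protein-coding gene VMP1. The miR-590-5p strand lies at chr7:74191213-74191234. Aligned from the 5′ end without gaps, the mature strands were alike at 8 of 22 positions. miR-590-5p stood at 1 count in each of the 5 lanes, as 12 probes of the panel did, below every lane's limit of detection. The seed was thus read above background only through miR-21.

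miR-21 was lower in shPLEKHA7 cells than in NT cells. Its raw counts were 1466, 1120 and 2419 in shPLEKHA7 replicates 1, 2 and 3, against 2140 and 4415 in NT replicates 1 and 3. The raw counts of the groups overlapped, since shPLEKHA7 replicate 3 was read 1.13 times as often as NT replicate 1. Those lanes differed in depth, with total miRNA counts of 58298 in shPLEKHA7 replicate 3 and 34942 in NT replicate 1, and over all lanes the totals ran from 32138 to 58298. After TMM scaling, which sets lanes to a common level from the bulk of their probes, miR-21 stood at 1337, 1539 and 1829 normalized counts in shPLEKHA7 lanes, against 2712 and 4150 in NT lanes. The scaled groups did not overlap, and NT replicate 1, the lower of the NT lanes, was 1.48 times the highest shPLEKHA7 lane.

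The group averages were 1568 ± 247 normalized counts in shPLEKHA7 cells (SD, n = 3) and 3431 ± 1017 in NT cells (SD, n = 2). In the edgeR quasi-likelihood test the log2 fold change was -1.13 (SE 0.20, 95% interval from -1.57 to -0.69, adjusted p = 0.0199 over 204 tested probes), a level 2.19-fold lower with an interval from 1.61-fold to 2.97-fold. In that fit 3.92% of the tested probes were called lower (8 of 204, at an adjusted p under 0.05) and 2.45% higher, 6.37% in all. Probes whose scaled groups did not overlap made up 48.0% of those tested, 22.1% with shPLEKHA7 lower, so a lack of overlap alone was common on this panel. The call rested on NT replicate 3: without it the log2 fold change was -0.75 and the adjusted p 0.0644, with the lone NT lane assumed to vary like the shPLEKHA7 lanes. Because the numbers ending the deposited column names place both NT lanes ahead of all shPLEKHA7 lanes, group and lane order cannot be told apart, and in bulk RNA fewer cells with the miRNA and less of it per cell cannot be told apart either.

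**Figure D1:**
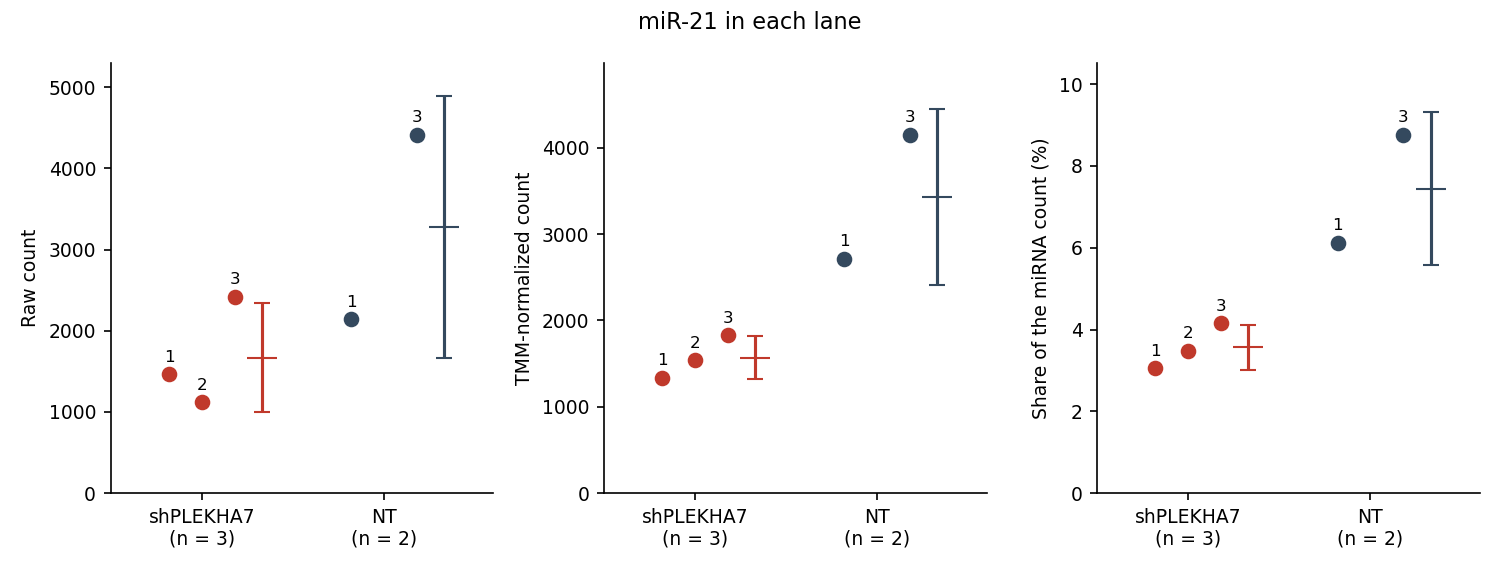
miR-21 in each lane as raw count, TMM-normalized count and percent of the miRNA count, with the replicate number above each point and the mean ± SD beside each group (shPLEKHA7 n = 3, NT n = 2). Raw counts overlap between groups (2419 in shPLEKHA7 replicate 3, against 2140 in NT replicate 1), while normalized counts and shares do not.

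As a share of all miRNA counts in its lane, miR-21 took 3.06% in shPLEKHA7 replicate 1 (95% Wilson interval 2.91% to 3.21%), 3.48% in replicate 2 (3.29% to 3.69%) and 4.15% in replicate 3 (3.99% to 4.31%). In NT cells it took 6.12% in replicate 1 (5.88% to 6.38%) and 8.76% in replicate 3 (8.52% to 9.01%). These intervals cover counting error only. Every shPLEKHA7 interval ended below both NT intervals, and the intervals of lanes within a group did not overlap either. The share averaged 3.56% ± 0.55 in shPLEKHA7 cells (SD, n = 3) and 7.44% ± 1.87 in NT cells (SD, n = 2), a log2 difference of -1.05 (2-sided exact permutation p = 0.1, the smallest that 10 splits of 5 lanes allow). Within its lane miR-21 ranked 8th, 8th and 6th of 734 probes in shPLEKHA7 replicates 1, 2 and 3, against 3rd and 2nd in NT replicates 1 and 3.

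Counting error was small beside the spread between lanes. Each lane's limit of detection, the mean plus 2 SD of its 8 negative-control probes, ran from 11 to 24.5 counts, and miR-21 exceeded it at least 59.95-fold. Its count also lay between those of the spike-ins POS_C and POS_A in every lane, inside the range of the synthetic targets added to each lane in set amounts. Set against POS_B, the spike-in between those, miR-21 stood at 0.716, 0.732 and 1.16 times in shPLEKHA7 replicates 1, 2 and 3, against 1.89 and 2.95 times in NT replicates 1 and 3. Such a ratio also carries any lane-wide difference of the miRNA count against the spike-ins. After scaling the NT lanes differed 1.53-fold in miR-21 and the shPLEKHA7 lanes 1.37-fold. Among the 31 tested probes with a mean of at least 200 normalized counts, a bound chosen after the values had been seen, the median gap between the NT lanes was log2 0.20, against log2 0.61 for miR-21. Of the other 30 only miR-1274a, an RNA now regarded as a tRNA fragment, had an NT gap as wide (1.66-fold).

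Among all tested probes miR-21 combined a high level with a large fall. It was 4th of 734 probes by mean normalized count. Its log2 fold change was the second lowest of 204, just after miR-574-5p, also at -1.13, whose raw counts were 20, 12 and 17 in shPLEKHA7 lanes, against 26 and 38 in NT lanes. Its unadjusted p was the second smallest, after that of miR-24. The 31 abundant probes had a median log2 fold change of -0.07 and all 204 a median of 0.06, and miR-21 lay below both. Of the abundant probes 4 were called lower, which besides miR-21 were let-7g (-0.65), miR-24 (-0.85) and miR-29a (-0.67), and 0 were called higher.

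**Figure D2:**
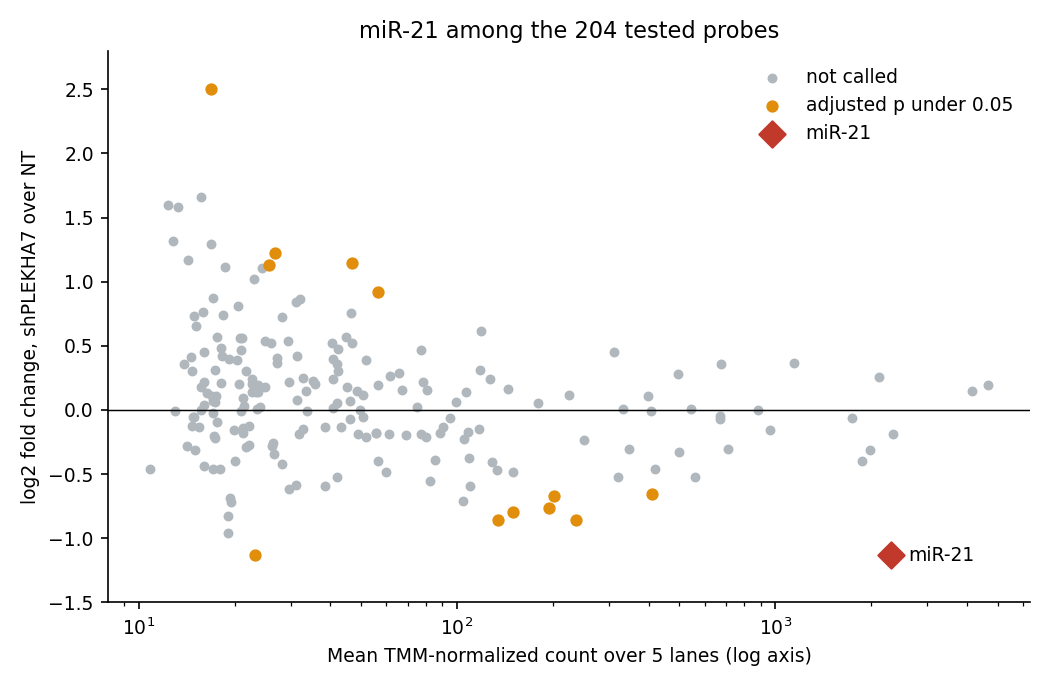
log2 fold change (shPLEKHA7 over NT) against mean TMM-normalized count for the 204 tested probes, with called probes in orange and miR-21 as a diamond. miR-21, at log2 -1.13, lies to the right of the other called probes.

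Because a ratio of counts from the same lane does not depend on how lanes are scaled, miR-21 was also set against the 5 other most abundant probes, the spike-in total and the housekeeping mRNAs. The abundant partners are miR-92a and the shared miR-20a/miR-20b probe, from the proliferation-promoting miR-17-92 cluster and its paralog, miR-373 and miR-372, from a cluster known in pluripotent stem cells, and miR-720, now regarded as a tRNA fragment. Under TMM none of the 5 was called, with log2 fold changes of 0.20 for miR-92a (SE 0.15), 0.15 for miR-720 (SE 0.17), -0.19 for miR-373 (SE 0.12), 0.26 for the miR-20a/miR-20b probe (SE 0.12) and -0.31 for miR-372 (SE 0.14). Scaled to the spike-ins instead, miR-92a (-0.16), miR-720 (-0.18) and the miR-20a/miR-20b probe (-0.083) turned negative.

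For every 1 count of miR-92a there were 0.250, 0.308 and 0.419 counts of miR-21 in shPLEKHA7 replicates 1, 2 and 3, against 0.562 and 1.11 in NT replicates 1 and 3. In 1 lane of the 5, NT replicate 3, miR-21 was thus read more often than miR-92a. The ratio to miR-720 was 0.343, 0.372 and 0.373 in shPLEKHA7 lanes, against 0.819 and 0.928 in NT lanes. This ratio varied little within either group (0.363 ± 0.017 in shPLEKHA7, SD, n = 3, and 0.874 ± 0.077 in NT, SD, n = 2), and the gap between the NT lanes was 1.13-fold here, against 1.53-fold for miR-21 alone.

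The ratio to miR-373 was 0.568, 0.730 and 0.828 in shPLEKHA7 lanes, against 1.11 and 1.58 in NT lanes, so that miR-21 was below miR-373 in every shPLEKHA7 lane and above it in both NT lanes. The same change of order was seen against miR-372, at 0.724, 0.954 and 0.924 in shPLEKHA7 lanes and 1.34 and 1.68 in NT lanes. It was also seen against the miR-20a/miR-20b probe, at 0.612, 0.693 and 0.773 in shPLEKHA7 lanes and 1.36 and 2.32 in NT lanes. Counts of different probes are set side by side only to follow their ratio between lanes, since each probe has its own efficiency.

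Relative to the summed spike-ins, miR-21 stood at 0.105, 0.105 and 0.170 in shPLEKHA7 lanes, against 0.278 and 0.414 in NT lanes. The spike-in totals were themselves higher in shPLEKHA7 lanes (14017, 10670 and 14239) than in NT lanes (7686 and 10656). This ratio therefore also carries any lane-wide difference of the miRNA count against the spike-ins, and is not a measure of miR-21 alone. Relative to the geometric mean of the 5 housekeeping mRNAs it stood at 0.761, 0.705 and 1.21 in shPLEKHA7 lanes, against 1.46 and 2.66 in NT lanes. Against all 7 partners the ratio was lower in shPLEKHA7 cells without overlap, by log2 differences from -1.46 (spike-in total) to -0.80 (miR-372). Without NT replicate 3 the difference against miR-92a was -0.82, against -1.31 with all lanes, and that against the housekeeping mRNAs was -0.75, against -1.19. All 7 stayed negative with any lane left out, but they share the same miR-21 counts and are not separate results. The 2-sided exact permutation p was 0.1 for 6 partners and 0.2 for the housekeeping mRNAs (0.117 and 0.2 after Benjamini-Hochberg adjustment over the 7), with 0.1 the smallest possible.

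**Figure D3:**
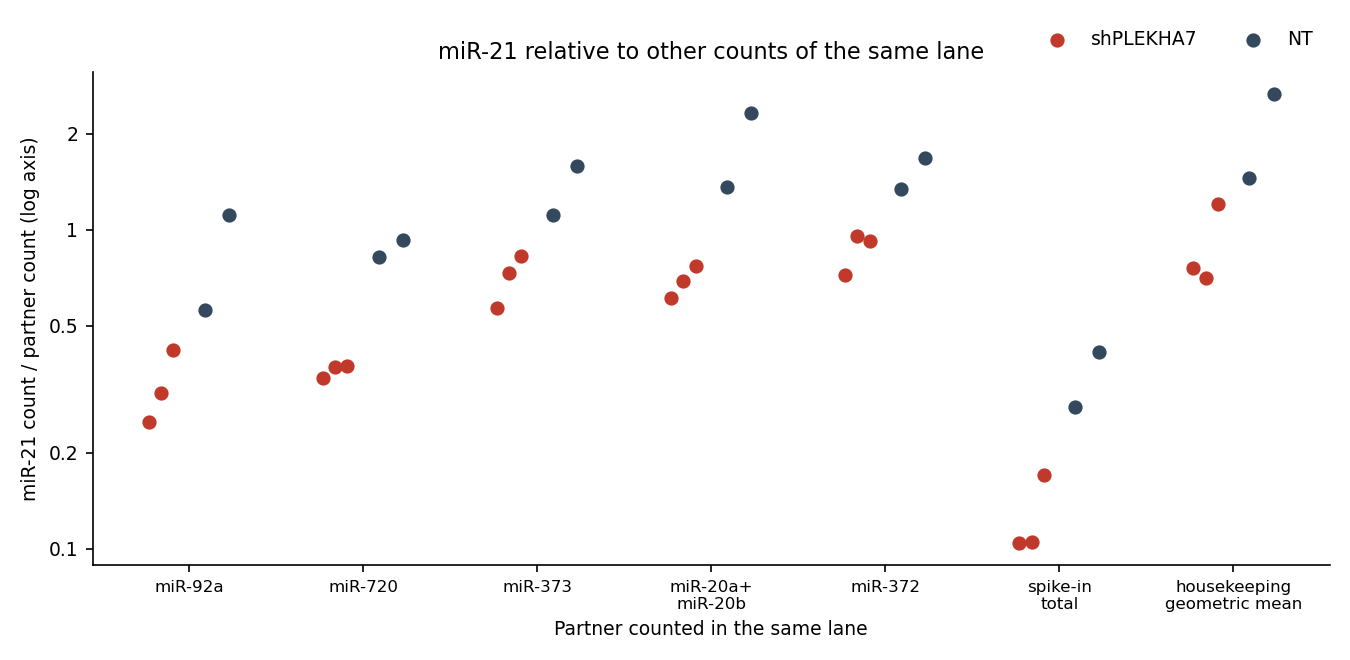
Count of miR-21 divided by the count of a partner in the same lane, on a log axis, for 5 abundant probes, the spike-in total and the housekeeping geometric mean (red shPLEKHA7, n = 3, left of dark NT, n = 2). For each of the 7 partners all shPLEKHA7 points lie below both NT points.

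Taken over the 30 other abundant probes, the ratio of miR-21 to the partner was lower in shPLEKHA7 cells without overlap for 26, with a median log2 difference of -1.04. All 30 ratios share the same miR-21 counts, so they largely restate its own fall and are not separate results. The 4 partners for which the groups overlapped were let-7g, miR-205, miR-24 and miR-29a, named after their values had been seen, of which 3 were themselves called lower. The difference was smallest against miR-24, at log2 -0.25. For every count of miR-24 there were 7.88, 8.89 and 9.49 of miR-21 in shPLEKHA7 lanes, against 8.56 and 12.6 in NT lanes. Both miRNAs were thus lower in shPLEKHA7 cells, and their ratio in NT replicate 1 fell among the shPLEKHA7 values.

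The tested probes whose pattern over the 5 lanes was closest to that of miR-21 were found by the root mean square difference of log2(normalized count + 1), each probe centred on its own mean. The median distance over 203 probes was 0.69, and the 5 closest were miR-135b (0.14), miR-24 (0.23), miR-30a (0.25), miR-23a (0.29) and miR-96 (0.32). That these are lower in shPLEKHA7 cells follows from how they were chosen. Their mature strands are shown, seed in capitals, so that the seeds can be set against that of miR-21.
hsa-miR-135b: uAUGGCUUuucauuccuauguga
hsa-miR-24: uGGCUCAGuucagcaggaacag
hsa-miR-30a: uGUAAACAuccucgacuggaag
hsa-miR-23a: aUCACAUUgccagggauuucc
hsa-miR-96: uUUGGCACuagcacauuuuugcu
None has the seed of miR-21, and all 5 seeds differ from each other. Whether any probe also read the target of another was not tested, and a comparison of seeds cannot decide it. RefSeq places none of their genes on the chromosome of MIR21, while miR-23a and 1 of the 2 loci of miR-24 lie close together on chromosome 19.

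miR-135b, which represses APC and is raised in colorectal cancer, was at 11.8, 15.1 and 15.1 normalized counts in shPLEKHA7 lanes, against 21.6 and 32.0 in NT lanes. It was above the limit of detection in 2 lanes, both NT (raw counts of 17 and 34), so its likeness to miR-21 rests on counts near background, and it was not called (log2 -0.96, SE 0.31, adjusted p = 0.113). miR-24 was at 169.6, 173 and 193 in shPLEKHA7 lanes, against 317 and 329.9 in NT lanes. Its NT lanes lay closer together than those of miR-21 (1.04-fold), and it was called lower (log2 -0.85, SE 0.13, adjusted p = 0.0186). miR-30a, which represses the autophagy protein Beclin 1, was at 84.8, 117 and 105 in shPLEKHA7 lanes, against 179 and 189 in NT lanes (log2 -0.86, SE 0.16, adjusted p = 0.0211). miR-23a was at 152, 162 and 142 in shPLEKHA7 lanes, against 243 and 271 in NT lanes (log2 -0.76, SE 0.14, adjusted p = 0.0199). It shares a transcript with the chromosome 19 locus of miR-24, while the chromosome 9 locus gives the same mature miR-24. The calls of miR-24, miR-30a and miR-23a were lost without NT replicate 1 (adjusted p = 0.0672, 0.121 and 0.0672) and without NT replicate 3 (adjusted p = 0.0627, 0.0685 and 0.0685). Their log2 fold changes were then -0.88, -0.90 and -0.84, and -0.78, -0.77 and -0.64. The calls were also lost under housekeeping scaling (adjusted p = 0.0842, 0.0709 and 0.107), with larger log2 fold changes of -0.92, -0.93 and -0.84, and under limma on the deposited values and without scaling. The last of the 5, miR-96, known from sensory cells and raised in colorectal cancer, was at 454, 397 and 573 in shPLEKHA7 lanes, against 579 and 787 in NT lanes. The highest shPLEKHA7 lane was thus close to the lower NT lane, and miR-96 was not called (log2 -0.52, SE 0.19, adjusted p = 0.12). Without NT replicate 3 it was at -0.23. Under spike-in scaling both miR-135b (log2 -1.28, adjusted p = 0.0071) and miR-96 (log2 -0.84, adjusted p = 0.022) were called lower. That setting called 29 probes lower, against 8 in the main fit. Both probes had been chosen for their likeness to miR-21, and miR-135b passed the filter only through its NT lanes. These calls are thus not separate results.

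**Figure D4:**
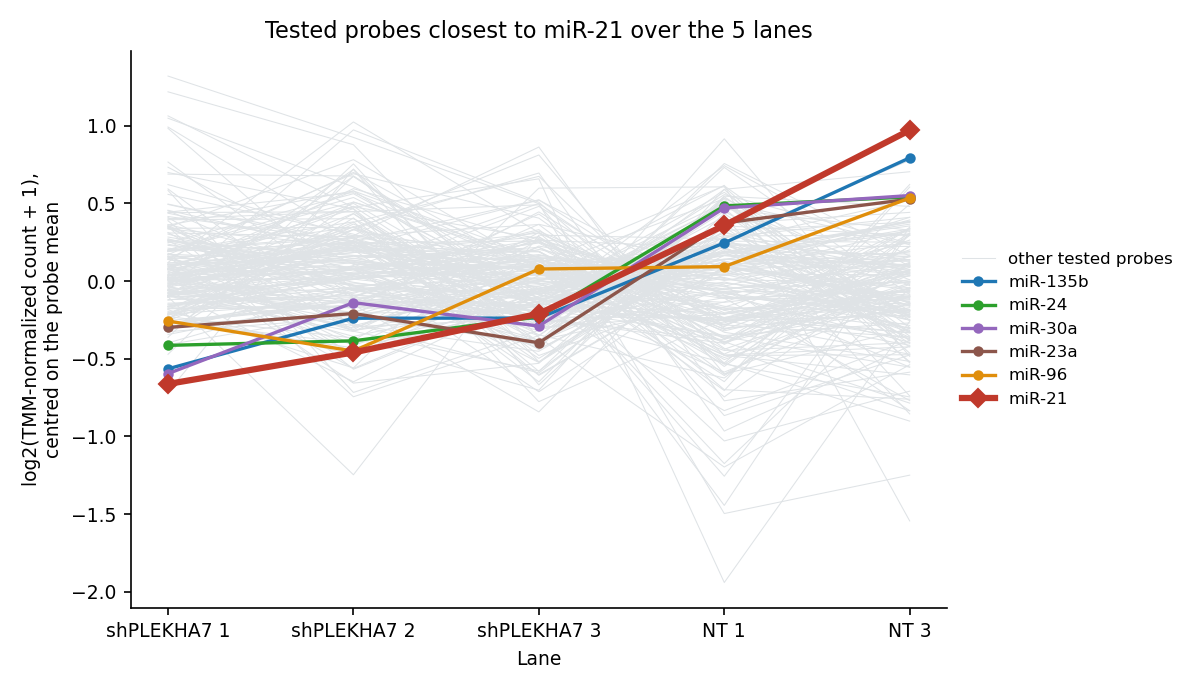
log2(TMM-normalized count + 1) of miR-21 and of the 5 tested probes closest to it, each centred on its own mean over the 5 lanes, with all tested probes in grey (lines join lanes only to guide the eye). The distances run from 0.14 (miR-135b) to 0.32 (miR-96), and NT replicate 3 is the lane where miR-21 is highest.

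PDCD4, a well known target of miR-21, is also repressed by other miRNAs, which were listed from textbook knowledge. Of 4 miRNAs listed for PDCD4, 3 had a probe and 2 were tested. Both were below 0, as were 89 of the 204 tested probes, and neither was called. Their median log2 fold change was -0.56, against 0.06 over all tested probes. They were miR-96 and its cluster neighbour miR-183, at 81.2, 103 and 90.7 in shPLEKHA7 lanes and 130.5 and 143 in NT lanes (log2 -0.59, SE 0.16, adjusted p = 0.0606). miR-96 had already been chosen for its likeness to miR-21, so its sign is not a separate result. miR-183 passed without shPLEKHA7 replicate 2 (adjusted p = 0.0224) and, with the replicate block set aside, in 5 settings that kept all lanes at the same threshold, spike-in scaling among them (adjusted p = 0.0101).

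miR-21 is also abundant in fibroblasts and immune cells, so markers of these and of the intestine were read beside it. Epithelial miR-200 family probes were above the limit in all lanes (5 of 5), and summed to 1431 to 1515 normalized counts in shPLEKHA7 lanes and 1639 to 1684 in NT lanes. Of the 5, 0 were called in either direction, 4 were below 0 and 1, miR-141, was above (log2 0.14), with a median of -0.15. The largest part of the sum was miR-200c (log2 -0.15, SE 0.12). Of the 3 intestinal probes, miR-192 and miR-194 were above the limit in all lanes and were not called. miR-215 was at 28.3, 30.2 and 45.4 normalized counts in shPLEKHA7 lanes, against 13.9 and 15.98 in NT lanes, where both raw counts (11 and 17) were below the limit. It passed the filter only through its 3 shPLEKHA7 lanes, the group where it is higher, so the filter favoured that direction. It was called higher (log2 1.22, SE 0.31, adjusted p = 0.048), opposite in direction to miR-21, a call lost without NT replicate 1, NT replicate 3 or shPLEKHA7 replicate 3 (adjusted p = 0.209, 0.149 and 0.0874), and under limma, without a filter and without scaling. The part of miR-215 in the miR-21 result was not tested. The 5 blood cell probes summed to 103 to 128 in shPLEKHA7 lanes and 110.3 to 112 in NT lanes, with miR-150 and miR-451 above the limit in no lane. The 5 probes of stroma and endothelium summed to 98.9 to 119.5 in shPLEKHA7 lanes and 97.8 to 110.3 in NT lanes, with miR-143 and miR-199a-5p above the limit in no lane. In each of the lists only 2 of the 5 probes were above the limit in all lanes. No background was subtracted, so both sums hold background counts. Of these 2 lists 6 probes were tested and 0 called by edgeR (and 0 by limma, while DESeq2 gave none of the 6 an adjusted p), where 6.37% of all tested probes were called. 1 of the 6, miR-214, had an unadjusted p under 0.05. It was at 24.6, 37.1 and 52.2 in shPLEKHA7 lanes, against 19.0 and 23.5 in NT lanes (log2 0.84, SE 0.34, adjusted p = 0.162). It passed without shPLEKHA7 replicate 1 (adjusted p = 0.0288) and with replicate number as a block (adjusted p = 0.0461), where only replicates 1 and 3 compare the groups. miR-126 was at 51.1, 23.4 and 31.0 in shPLEKHA7 lanes, against 57.0 and 47.0 in NT lanes (log2 -0.52, SE 0.30, adjusted p = 0.298), the opposite sign, and was called under spike-in scaling (log2 -0.86, adjusted p = 0.0235). All lanes are of Caco2 cells, an established epithelial line, so the 2 lists describe probe counts in that line and not other cells. Any part of these probes in the miR-21 result was not tested.

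The fall of miR-21 was recomputed under other scalings, tests and filters. In 16 settings that kept all 5 lanes the log2 fold change ran from -1.45 (scaling to the spike-ins) to -0.97 (no scaling), and 15 of the 16 called miR-21. Among the 15 was the main fit itself read at an adjusted p under 0.1, a call fixed in advance. The exception was the setting without any scaling, added after the raw counts had been seen, where the adjusted p was 0.502. Leaving miR-21 itself out of the total count used for scaling gave log2 -1.13, against -1.06 with it in. With a lane left out 4 of 5 fits called it, all but the one without NT replicate 3, and without NT replicate 1 the log2 fold change was -1.40. Each fit without an NT lane holds a lone NT lane, which is assumed to vary like the shPLEKHA7 lanes. Without NT replicate 1 the lane kept is NT replicate 3, where miR-21 is highest, so the larger fall follows from the lane kept.

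**Figure D5:**
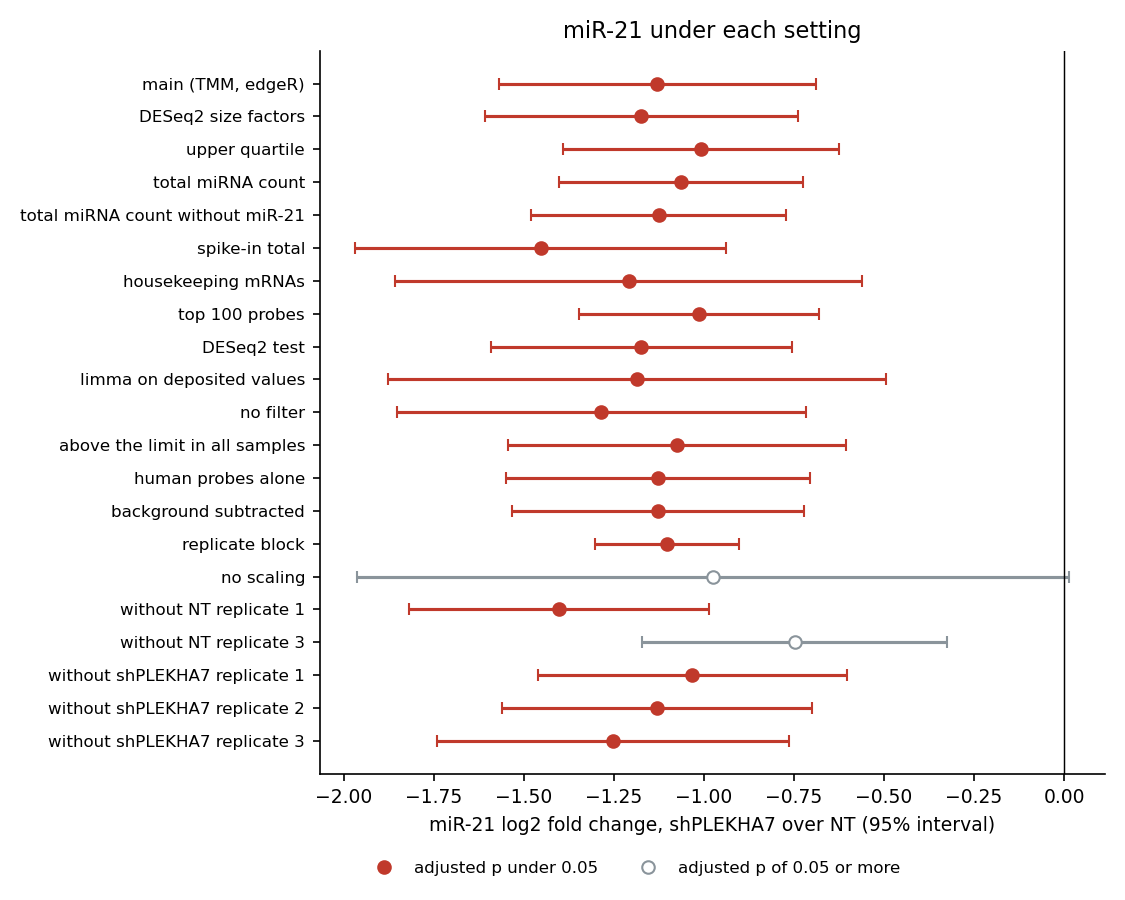
log2 fold change of miR-21 (shPLEKHA7 over NT) with its 95% interval under each setting, filled where the adjusted p was under 0.05. The looser threshold is left out, since it repeats the main fit. All points lie below 0, and the open points are the settings with no scaling (-0.97) and without NT replicate 3 (-0.75).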

How the data were processed

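The authors deposited a table of raw counts per probe and lane, and a second table of normalized signal. The program that exported them is not given in the sources used here. For human miRNA probes 100% of the deposited signal values equalled, within 0.02, the raw count multiplied by a lane factor. The factors brought the geometric mean of the 5 housekeeping mRNAs to 1802.2 in each lane. Viral values were unscaled.

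The comparison was edgeR's quasi-likelihood test (version 4.0.16 under R 4.3.3), run on raw counts with TMM scaling and group as the only term, over the 204 of 734 probes above the mean plus 2 SD of the lane's negative controls in at least 2 lanes, with Benjamini-Hochberg adjustment and a threshold of 0.05. The SE was derived as the size of the log2 fold change divided by the root of the F statistic. Code was tested on simulated data. Alternatives included DESeq2 1.42.0 and limma 3.58.1 on log2(deposited value + 1). Single values had 2-sided exact permutation tests. Named probes were miR-21, the 5 other most abundant, the 5 closest in pattern, probes sharing its seed, and fixed lists, of which 1 is not reported here. The probe, lists and tests were chosen with earlier results of these data known. Replicates 1 and 3 occur in both groups, but nothing states that a number marks 1 infection set, so lanes were not paired. The p-values set the difference between groups against the spread between these lanes. In edgeR, DESeq2 and limma that spread is estimated partly from the other tested probes, so the intervals do not rest on the 5 miR-21 values alone. Fold columns of the normalized table were not used.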

Additional observations from a re-analysis of the deposited data

How the results depend on the processing

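The 21 alternatives run include the main fit read at an adjusted p under 0.1, which could not differ for miR-21. The fall of miR-21 kept its direction in all 21, and its call in all but 2, the one without scaling (-0.97) and the one without NT replicate 3 (-0.75). Without NT replicate 1 it was at -1.40, with NT replicate 3, the lane where miR-21 is highest, as the only NT lane. The numbers of probes called moved more. Lower calls were 4 under the upper quartile, 29 under spike-in scaling, 2 under housekeeping scaling and under limma, 13 at an adjusted p under 0.1 and 0 without scaling (19 probes with an unadjusted p under 0.05), against 8. Higher calls were 11 under total counts, 12 under the top 100 probes, 2 under DESeq2 and among probes above the limit in all lanes, 1 without a filter and without scaling, and 8 at an adjusted p under 0.1, against 5. With a lane left out the edgeR counts ran from 0 to 9 higher and from 0 to 11 lower. With replicate number as a block, edgeR called 10 higher and 12 lower, with miR-21 at -1.10 (adjusted p = 9.29e-09). No NT lane carries the number of shPLEKHA7 replicate 2, so the group term of that fit rests on the 2 shared numbers. Its spread then comes almost wholly from the other tested probes, so that p-value is not a measure of the spread of miR-21. Deviations of same-numbered lanes correlated at 0.029 and 0.154 over the 2 shared numbers, too few to settle a pairing. The log2 difference of the ratio to the miR-20a/miR-20b probe ran from -1.75 to -0.98 with a lane left out, that to miR-92a from -1.80 to -0.82 and that to the housekeeping mRNAs from -1.62 to -0.75. Signs turned under spike-in scaling for miR-92a (-0.16), miR-720 (-0.18) and the miR-20a/miR-20b probe (-0.083), and for miR-720 also without a filter (-0.0085) and without NT replicate 1 (-0.0501, against 0.42 without NT replicate 3). The causes were not tested. Of 290 values of 14 other named probes 251 kept direction and status, called or not called, 21 lost the call, 13 gained it and 5 changed sign. Of the 14 only miR-24, miR-30a, miR-23a and miR-215 were called in the main fit, so most of the 251 were uncalled in both. Values without an adjusted p under DESeq2 were counted as kept, that of miR-215 among them. The 290 include the main fit read at an adjusted p under 0.1. With 2 NT lanes the NT spread is poorly known, and no exact test here could go below 0.1.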
